A study of Mus musculus with 9 samples.

Results

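The 50 genes described here run the cell cycle and were taken by name from the 46517 genes of an expression table, where each name matched 1 row. They comprise 8 G1 cyclins and kinases, 14 S phase genes (licensing of replication origins, DNA replication and nucleotide supply), 19 mitosis genes (G2 and M phase), 5 genes of the E2F, FoxM1 and Rb transcription circuit, and 4 inhibitors of cyclin-dependent kinases (CDK). RNA came from live CD45+ neutrophils, gated as Ly6G+ and Ly6C+ after exclusion of cells with CD3, B220 or NK1.1, of C57BL/6 mice that carried pancreatic tumors after orthotopic transplantation of tumor cells (OT mice), sorted at day 27. Bone marrow (labelled Ly6G.hi), blood and tumor gave 3 libraries each, and by the study's methods every library was a pool of 5 OT mice. The transplanted cells were a luciferase-expressing line derived from a mouse pancreatic tumor. All 3 groups carried the tumor, so no animal without one enters these comparisons.

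In a proliferating cell, D-type cyclins with Cdk4 or Cdk6 and cyclin E with Cdk2 phosphorylate the retinoblastoma protein, which frees E2F factors to switch on genes for DNA replication. Mitosis genes are switched on later, largely through the MuvB complex with B-Myb and FoxM1, and CDK inhibitors hold these kinases back. In granulopoiesis, promyelocytes and myelocytes divide in the bone marrow, whereas band and segmented neutrophils no longer divide and are released into blood.

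The values are log2 FPKM, a level scaled to gene length and library size on a log2 scale. The length is the genomic span for most genes, so levels are compared between libraries and not between genes. Read counts recovered from the values totalled 7108871 to 7949367 per bone marrow library, 4580807 to 6830374 per blood library and 5446499 to 6969557 per tumor library. All 50 genes had at least 5 reads in at least 1 library, the filter of the test. Adjusted p-values are from limma with Benjamini-Hochberg adjustment over the 17714 genes that passed it, and a gene was called at an adjusted p under 0.05. Changes are log2 fold changes with their standard error (SE). Ly6g, the gene of the sorting marker, had 4527 to 5241 reads in the bone marrow libraries, 580 to 654 in those of blood and 200 to 456 in those of tumor. The 9 mature neutrophil markers summed to 40900 to 44000 RPM (reads scaled to library size) in bone marrow, to 40900 to 43500 in blood, and to 9130 to 11500 in tumor.

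Tumor libraries also held reads of other pancreatic cells. The 12 epithelial markers summed to 2750 to 5190 RPM in tumor against 88.9 to 102 in bone marrow. Of the 12, 11 were higher and 1 was lower in tumor than in bone marrow. The keratin gene Krt8 had 6831, 6601 and 14591 reads in tumor libraries and 9, 0 and 10 in bone marrow. The 10 fibroblast markers summed to 1140 to 1290 RPM in tumor against 5.98 to 12.5 in bone marrow, and the 7 acinar markers to 692 to 2560 RPM against 0.707 to 4.78. None of these 3 lists had a gene at 0 over the tumor libraries. Blood library 2 had 406 reads of Krt8 and 98 of Epcam, where the other blood libraries had at most 5 and 1. In these bulk libraries a change in the number of cells of a type and a change in RNA per cell cannot be told apart.

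Across the 50 genes, most were highest in bone marrow and lowest in blood. Between blood and bone marrow, 41 were lower and 4 higher in blood, against 18.1% of all tested genes called lower and 13.7% called higher. Their median log2 fold change was -3.47, beside 0 over all genes. Between tumor and blood, 38 were higher and 6 lower in tumor, against 33.7% and 21.1% of all genes, with a median of 3.53 beside 0.50. Between tumor and bone marrow, 5 were higher and 21 lower in tumor, against 26.8% and 19.5% of all genes, with a median of -0.85 beside 0.29. Without bone marrow library 3 the 21 became 13. Each pair of these comparisons shares a group of libraries, so their counts are not independent.

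**Figure D1:**
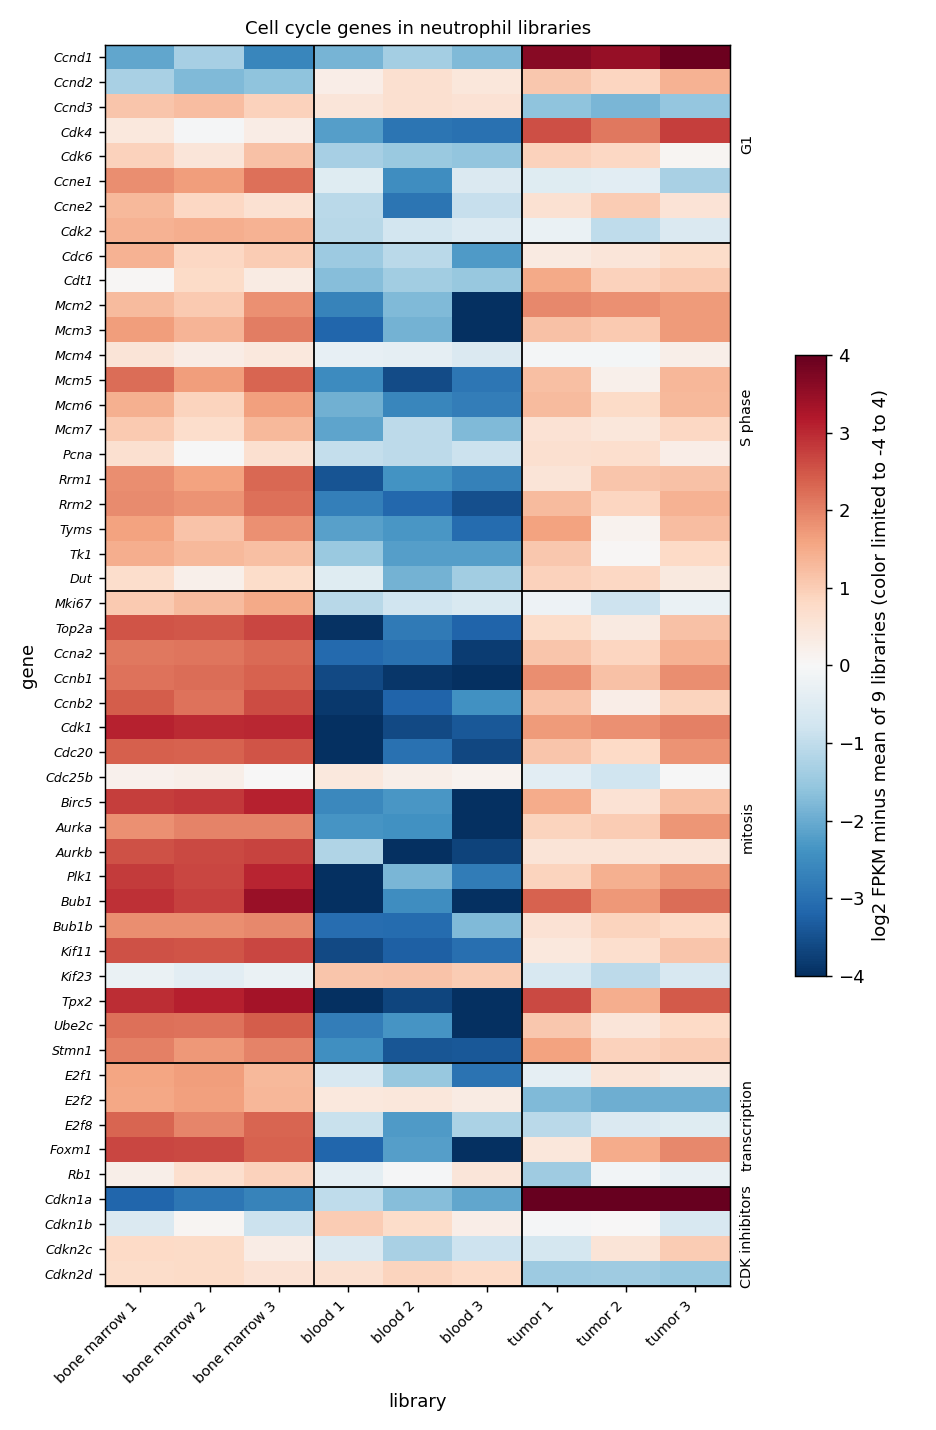
Heat map of the 50 cell cycle genes (rows, grouped by class) in the 9 libraries (columns), colored by log2 FPKM minus the gene's mean over the 9 libraries, with colors limited to -4 to 4. Most S phase and mitosis rows are high in bone marrow and low in blood, while Kif23 is highest in blood, and Ccnd1 and Cdkn1a are high in tumor libraries.

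All 14 S phase genes were lower in blood than in bone marrow, against 18.1% of all tested genes. All 14 were higher in tumor than in blood, against 33.7%. The class median log2 fold changes were -3.51 and 3.11. Between tumor and bone marrow the median was -0.40, 1 gene was higher, 3 were lower and 10 were not called. Of all tested genes, 26.8% were higher and 19.5% lower, so the 3 lower genes (21.4%) were near that share. Summed over the class, bone marrow libraries had 633 to 924 RPM, blood libraries 88.1 to 110 RPM and tumor libraries 513 to 639 RPM. Tumor library 3, the highest of the tumor libraries in this sum, was also the highest in epithelial markers, and tumor library 2 was the lowest in both. The part of other cells' RNA in the tumor level was not tested. Without blood library 2, 14 genes were still called higher in tumor than in blood.

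The Mcm genes encode the helicase that is loaded at replication origins. Mcm5 stood at log2 FPKM 2.11, 1.57 and 2.23 in bone marrow, -2.62, -3.69 and -2.99 in blood and 1.08, 0.10 and 1.23 in tumor. On the authors' scaling the 3 compartments did not overlap, with tumor close under bone marrow and blood far below. Mcm5 was lower in blood than in bone marrow by a log2 change of -5.07 ± 0.36 (SE, adjusted p = 3.98e-06). In tumor its change against bone marrow was -1.17 ± 0.36 (adjusted p = 0.0212), a call that was lost without bone marrow library 1 or 3 or tumor library 2. Mcm6 was at 1.75, 1.21 and 1.98 in bone marrow, -1.58, -2.28 and -2.45 in blood and 1.61, 1.09 and 1.64 in tumor. Tumor and bone marrow libraries of Mcm6 overlapped (-0.20 ± 0.28, adjusted p = 0.575). Mcm2 (0.44 ± 0.67, adjusted p = 0.611) and Mcm7 (-0.40 ± 0.27, adjusted p = 0.246) were likewise not called between tumor and bone marrow. Both were higher in tumor than in blood, Mcm2 by 5.02 ± 0.67 (adjusted p = 0.000106) and Mcm7 by 2.26 ± 0.27 (adjusted p = 4.72e-05). Mcm4 had the smallest change of the class between blood and bone marrow, with 139 to 194 reads in blood and 311 to 427 in bone marrow (-0.84 ± 0.15, adjusted p = 0.00179).

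The promoters of Mcm6 and Mcm5 are shown because they carry letters of E2F sites, the element through which replication genes are known to be switched on in G1/S. RefSeq windows on GRCm38.p6 run from 250 bases before to 50 bases after the annotated start, and 45 windows of 40 of the 50 genes were found. The letters searched on both strands were TTTCCCGC, TTTCGCGC, TTTGCCGC and TTTGGCGC for an E2F site, TTTGAA for the cell cycle genes homology region (CHR) of mitosis promoters, and CCAAT for the CCAAT box. Matches of the 3 motifs are in capitals, and overlapping E2F matches on opposite strands run together. The Mcm6 window lies at chr1:128359656-128359955 on the minus strand and the Mcm5 window at chr8:75109259-75109558 on the plus strand, both printed 5′ to 3′ in the direction of the gene.
Mcm6: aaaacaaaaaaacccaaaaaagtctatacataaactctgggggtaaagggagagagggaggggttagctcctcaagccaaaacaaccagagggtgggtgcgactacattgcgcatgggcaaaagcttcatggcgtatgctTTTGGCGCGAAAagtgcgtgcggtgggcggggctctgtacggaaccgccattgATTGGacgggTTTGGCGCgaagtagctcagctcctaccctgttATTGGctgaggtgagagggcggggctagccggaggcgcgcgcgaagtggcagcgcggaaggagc
Mcm5: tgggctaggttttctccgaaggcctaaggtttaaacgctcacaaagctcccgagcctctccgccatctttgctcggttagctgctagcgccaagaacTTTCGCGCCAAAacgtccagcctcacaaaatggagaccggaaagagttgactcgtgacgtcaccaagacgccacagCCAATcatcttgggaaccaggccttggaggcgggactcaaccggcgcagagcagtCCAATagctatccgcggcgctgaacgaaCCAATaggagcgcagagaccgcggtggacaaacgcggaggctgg

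Mcm6 holds 3 E2F matches and Mcm5 holds 2. The 14 S phase windows cover 13 genes, with 2 windows for Mcm7 and none for Mcm4. Among these windows, 6 (42.9%) held an E2F match, 1 of them from Mcm7. This compares with 2.26% of all 32851 promoter windows of the same length and 1 of 15 mitosis windows. The S phase genes with a match were Mcm3, Mcm5, Mcm6, Mcm7, Cdc6 and Cdt1. A match is a description of the letters and not a measured site.

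Rrm1 and Rrm2 encode the subunits of ribonucleotide reductase, which supplies deoxynucleotides. Rrm2 was at log2 FPKM 4.10, 3.99 and 4.41 in bone marrow, -0.53, -0.94 and -1.31 in blood and 3.49, 3.07 and 3.59 in tumor. On the authors' scaling all 3 tumor libraries lay under all bone marrow libraries and far above blood. Its change was -0.78 ± 0.24 against bone marrow (adjusted p = 0.0186) and 4.31 ± 0.24 against blood (adjusted p = 3.17e-07). Rrm1 followed the same order, with -0.99 ± 0.30 against bone marrow (adjusted p = 0.0183). Without bone marrow library 3 neither gene was called between tumor and bone marrow, nor was Rrm2 without tumor library 2 or Rrm1 without tumor library 1. With plain library totals tumor and bone marrow overlapped in Mcm5, Rrm1 and Rrm2, and none of them was called.

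Pcna, the sliding clamp of the replication fork, had 387, 206 and 383 reads in bone marrow, 76, 100 and 96 in blood and 356, 448 and 356 in tumor. Its tumor and bone marrow levels overlapped (0.11 ± 0.21, adjusted p = 0.693), and tumor exceeded blood by 1.48 ± 0.21 (adjusted p = 0.000156). Cdt1, which loads the Mcm helicase, was the 1 member of the class higher in tumor than in bone marrow. It was at 1.27, 1.97 and 1.53 in bone marrow, -0.52, -0.18 and -0.32 in blood and 2.71, 2.11 and 2.27 in tumor. The change of 0.77 ± 0.27 against bone marrow (adjusted p = 0.0353) was not called without bone marrow library 1 or 3 or tumor library 1 or 3, or with the replicate number as a block. The other members, Cdc6, Mcm3, Tyms, Tk1 and Dut, were all lower in blood than in bone marrow and higher in tumor than in blood, and none was called between tumor and bone marrow.

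Of the 19 mitosis genes, 17 were lower and 1 higher in blood than in bone marrow, against 18.1% and 13.7% of all tested genes. Between tumor and blood 16 were higher and 2 lower in tumor, against 33.7% and 21.1%. The class median log2 fold changes were -5.76 and 4.27. Between tumor and bone marrow 11 were lower, against 19.5% of all tested genes, and 0 were higher, against 26.8%. Not called were 8, and the class median was -1.17. The number called lower ranged from 5 with plain library totals to 17 with only the 2 compartments compared or with 0.1 added to FPKM, 18 with 1 added and 19 with limma-voom, and 0 were higher under each of these. With 1 added to FPKM the class median was -2.56 for blood against bone marrow and 1.32 for tumor against blood, and the S phase medians were -1.57 and 1.37. On the authors' scaling every tumor library lay below every bone marrow library in all 19 genes, where 23.7% of all tested genes did so, and in 6 of the 14 S phase genes, with 1 above and 7 overlapping. With plain totals this held for 11 mitosis genes and 0 S phase genes, against 15.5% of all tested genes. On those totals 4 S phase genes had every tumor library above every bone marrow library, where 41.5% of all tested genes did so. Without bone marrow library 3, 7 mitosis genes and 0 S phase genes were called lower in tumor than in bone marrow.

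**Figure D2:**
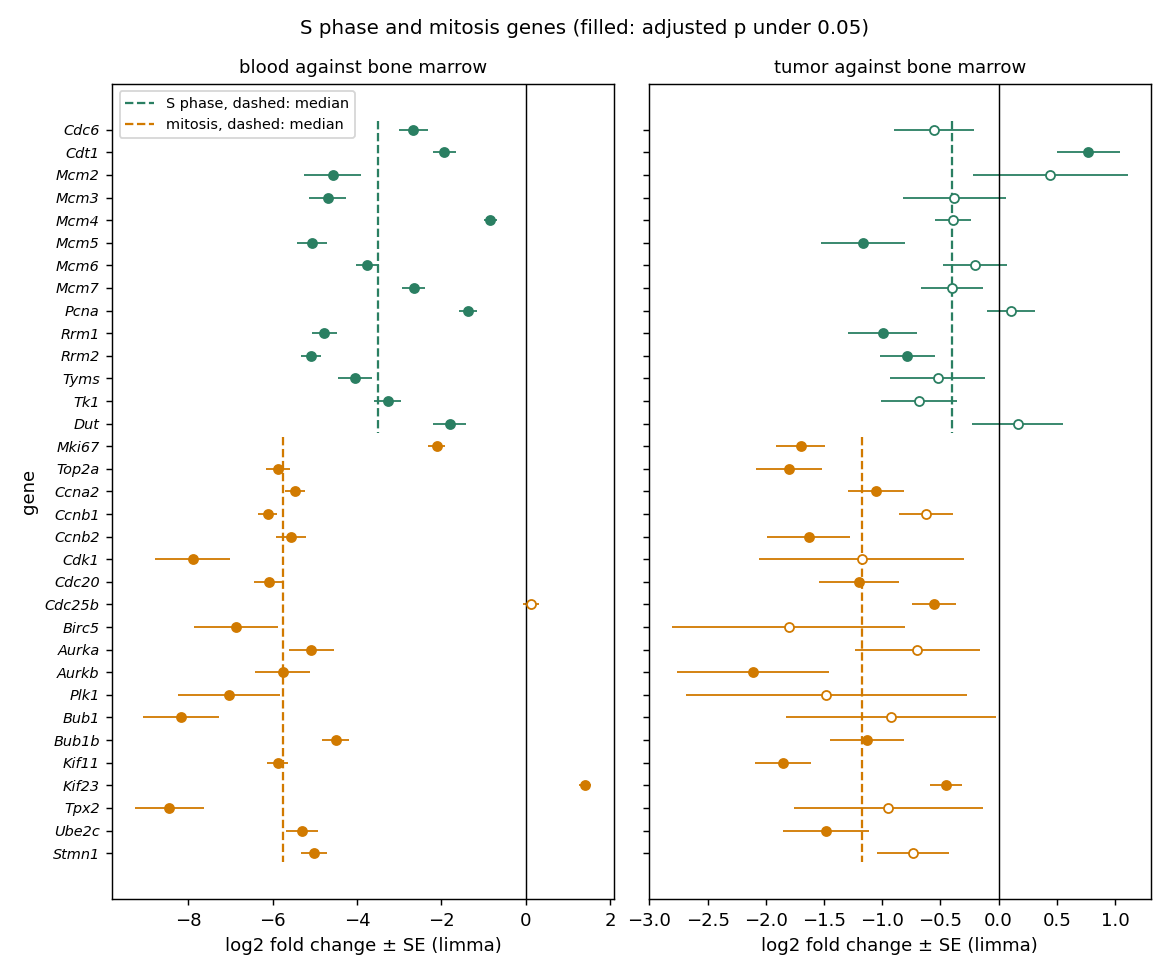
Log2 fold change with its standard error (limma) for each S phase and mitosis gene, blood against bone marrow on the left and tumor against bone marrow on the right. Filled points have an adjusted p under 0.05 and dashed lines are class medians, which are -3.51 for S phase and -5.76 for mitosis on the left, and -0.40 and -1.17 on the right, where every mitosis gene lies below 0.

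Top2a, the topoisomerase that untangles chromosomes before they part, was at log2 FPKM 2.70, 2.67 and 2.87 in bone marrow, -3.76, -2.63 and -3.01 in blood and 0.93, 0.56 and 1.37 in tumor. The compartments were well apart, with tumor in the middle. The change was -1.80 ± 0.29 for tumor against bone marrow (adjusted p = 0.000436) and 4.08 ± 0.29 for tumor against blood (adjusted p = 1.42e-06). Cdc20, which activates the anaphase-promoting complex, was at 4.66, 4.65 and 4.81 in bone marrow, -2.09, -0.71 and -1.35 in blood and 3.37, 3.09 and 4.08 in tumor. Its change of -1.20 ± 0.34 for tumor against bone marrow (adjusted p = 0.0151) was not called without bone marrow library 3, tumor library 1 or tumor library 2, or with plain library totals. Aurkb, the kinase of the chromosomal passenger complex, had 309 to 384 reads in bone marrow, against 2 to 15 in blood and 79 to 98 in tumor. Its call for tumor against bone marrow (-2.11 ± 0.65, adjusted p = 0.0214) was lost when any bone marrow or tumor library was left out, and with plain library totals.

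Many mitosis genes had few reads in blood. Bub1, a kinase of the spindle checkpoint, had 0, 3 and 0 reads in blood against 161, 120 and 230 in bone marrow and 102, 80 and 118 in tumor. The ratio of tumor to blood reads, scaled to library size, was 65.5, with a 95% exact interval of 22.2 to 319 that covers counting error only. Tpx2, which nucleates spindle microtubules, had 1, 3 and 0 reads in blood against 377, 355 and 477 in bone marrow and 279, 149 and 317 in tumor. On the authors' scaling its tumor libraries lay under those of bone marrow, but the difference was not called (-0.95 ± 0.81, adjusted p = 0.361). It was called lower with 0.1 or 1 added to FPKM, with only the 2 compartments compared and with limma-voom (lowest adjusted p = 0.00732). Cdk1, the kinase of mitotic entry, had 0, 3 and 3 reads in blood, 318 to 398 in bone marrow and 143 to 227 in tumor. It was not called between tumor and bone marrow (-1.18 ± 0.88, adjusted p = 0.302), although every tumor library lay below every bone marrow library. The SE is pooled over the groups, and the SD of Cdk1 was 2.37 in blood, 0.05 in bone marrow and 0.16 in tumor. With limma-voom Cdk1 was called lower in tumor, as were all 19 mitosis genes. Ccnb2, a cyclin partner of Cdk1, had 4 to 13 reads in blood, 385 to 609 in bone marrow and 138 to 221 in tumor, and was lower in tumor than in bone marrow (-1.63 ± 0.36, adjusted p = 0.00342).

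The promoters of Ccnb2 and Cdk1 show the elements of mitosis genes, and that of Kif23 is added because its level went against the class in blood. The Ccnb2 window is at chr9:70421505-70421804, the Cdk1 window at chr10:69352863-69353162 and the Kif23 window at chr9:61946750-61947049, all on the minus strand of GRCm38.p6 and read in the direction of the gene, with matches of the 3 motifs in capitals as above.
Ccnb2: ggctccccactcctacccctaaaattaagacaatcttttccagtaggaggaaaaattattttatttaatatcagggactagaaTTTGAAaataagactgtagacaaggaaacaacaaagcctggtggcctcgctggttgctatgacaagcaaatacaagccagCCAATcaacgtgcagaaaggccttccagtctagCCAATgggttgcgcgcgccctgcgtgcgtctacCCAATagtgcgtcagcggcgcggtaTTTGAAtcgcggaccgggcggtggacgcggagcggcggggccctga
Cdk1: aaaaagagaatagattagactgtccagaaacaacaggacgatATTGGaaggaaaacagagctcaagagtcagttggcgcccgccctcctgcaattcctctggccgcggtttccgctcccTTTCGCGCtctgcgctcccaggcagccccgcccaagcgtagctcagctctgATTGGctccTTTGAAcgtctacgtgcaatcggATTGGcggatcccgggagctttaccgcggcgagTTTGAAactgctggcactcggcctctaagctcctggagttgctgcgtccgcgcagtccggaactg
Kif23: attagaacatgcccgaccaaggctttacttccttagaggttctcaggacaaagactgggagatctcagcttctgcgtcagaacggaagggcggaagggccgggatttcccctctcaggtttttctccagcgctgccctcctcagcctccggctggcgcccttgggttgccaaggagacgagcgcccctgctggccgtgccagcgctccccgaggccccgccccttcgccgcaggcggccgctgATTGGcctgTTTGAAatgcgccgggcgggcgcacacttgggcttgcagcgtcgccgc

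Ccnb2 holds 2 CHR and 3 CCAAT matches, Cdk1 holds 2 CHR, 3 CCAAT and 1 E2F match, and Kif23 holds 1 CHR and 1 CCAAT match. The 15 mitosis windows cover 15 of the 19 genes, with none for Tpx2, Aurkb, Ccna2 and Stmn1. A CHR match was present in 11 of 15 mitosis windows (73.3%), against 17.9% of all windows and 1 of 14 S phase windows. At least 2 CCAAT matches were present in 9 of 15 mitosis windows (60.0%), against 11.7% of all windows and 5 of 14 S phase windows.

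**Figure D3:**
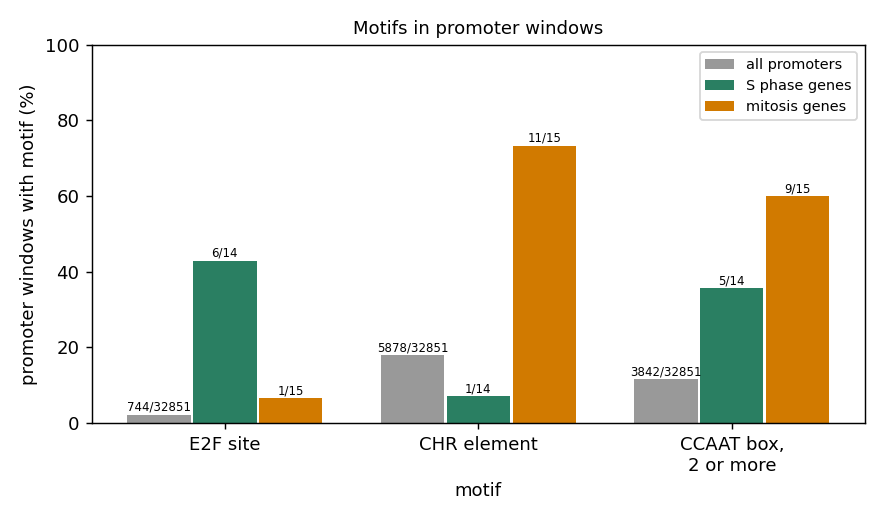
Share of promoter windows (percent, axis from 0) with an E2F site, a CHR element or at least 2 CCAAT boxes, for all promoters, S phase genes and mitosis genes. E2F matches are most frequent in S phase windows (6 of 14), and CHR matches (11 of 15) and repeated CCAAT matches (9 of 15) in mitosis windows.

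The exceptions of the class were Kif23, Cdc25b and Mki67. Kif23, a kinesin of the cytokinesis midzone (chr9:61915905-61946774), was at log2 FPKM 1.57, 1.41 and 1.57 in bone marrow, 2.94, 2.97 and 2.86 in blood and 1.19, 0.80 and 1.20 in tumor. Blood was the highest compartment. It was higher in blood than in bone marrow by 1.41 ± 0.14 (adjusted p = 3.03e-05), and its change in tumor against blood was -1.86 ± 0.14 (adjusted p = 1.89e-06). Of all tested genes, 20.1% had every blood library above every bone marrow library, and 23.6% had every tumor library below every blood library. Its lower level in tumor than in bone marrow (-0.45 ± 0.14, adjusted p = 0.0184) was not called without bone marrow library 1 or 3. With plain library totals tumor and bone marrow overlapped and the gene was not called (adjusted p = 0.996). No other annotated gene overlaps Kif23. The part of other blood cells' RNA in its blood level was not tested. Cdc25b, a phosphatase that activates Cdk1, was at 2.58, 2.66 and 2.44 in bone marrow, 2.85, 2.67 and 2.56 in blood and 2.00, 1.61 and 2.40 in tumor. Bone marrow and blood overlapped (0.13 ± 0.19, adjusted p = 0.667), and tumor lay below blood (-0.69 ± 0.19, adjusted p = 0.0109), which was not called with plain library totals (-0.24, adjusted p = 0.361). Against bone marrow the change of Cdc25b in tumor was -0.55 ± 0.19 (adjusted p = 0.0358), a call lost without any of the bone marrow libraries, blood library 2 or tumor library 1 or 2, and with plain totals.

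Mki67, the gene of the proliferation marker Ki-67, was at log2 FPKM 2.13, 2.32 and 2.57 in bone marrow, -0.04, 0.26 and 0.47 in blood and 0.86, 0.24 and 0.81 in tumor. Blood and tumor overlapped and both lay under bone marrow. Tumor against bone marrow changed by -1.70 ± 0.21 (adjusted p = 7.44e-05). Tumor against blood (0.41 ± 0.21, adjusted p = 0.117) was not called in the main fit. It was called higher without tumor library 2 or with plain library totals. Together Kif23, Cdc25b and Mki67 held 92.1% to 93.5% of the mitosis class reads in blood, 18.6% to 19.5% in bone marrow and 22.2% to 23.4% in tumor. The other 16 genes summed to 23.0 to 28.7 RPM in blood, 1170 to 1340 in bone marrow and 414 to 610 in tumor.

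S phase and mitosis genes were set side by side within each library, as the median deviation of S phase genes from their 9-library means minus that of mitosis genes, on the log2 scale. This difference was -0.98, -1.26 and -1.05 in bone marrow, 1.10, 1.09 and 0.92 in blood and 0.06, -0.09 and -0.07 in tumor. The 3 compartments did not overlap, with the balance most toward mitosis genes in bone marrow. The gap between tumor and blood depended on the value added to FPKM. The S phase median change minus the mitosis median change for tumor against blood was -1.16, and 0.05 with 1 added to FPKM. Why it moved was not tested. Summed mitosis RPM per S phase RPM were 1.85, 2.29 and 1.78 in bone marrow, 3.46, 3.30 and 3.88 in blood and 1.14, 1.04 and 1.23 in tumor. In the blood ratio most mitosis reads were those of Kif23, Cdc25b and Mki67. Between tumor and bone marrow, 26.8% of all tested genes were higher and 19.5% lower in tumor. Outside the 50 genes, of 42 other S phase genes 1 was higher and 5 (11.9%) lower in that comparison (median -0.31). Of 46 other mitosis genes 1 was higher and 22 (47.8%) lower (median -1.17). Among these other mitosis genes Pttg1, the securin gene, was like Kif23 highest in blood. It had 399, 523 and 465 reads there, against 96, 84 and 89 in bone marrow and 159, 198 and 147 in tumor. The part of other blood cells' RNA in its blood level was not tested.

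The tumor levels stood beside markers of early granulocytes and of other cells. The 5 primary granule genes, which are transcribed in promyelocytes, summed to 1330 to 1870 RPM in bone marrow, against 4.05 to 10.7 in blood and 11.6 to 13.2 in tumor. Mpo alone had 7748, 4928 and 8508 reads in bone marrow, 0, 29 and 6 in blood and 42, 33 and 43 in tumor. Mitosis reads per 100 primary granule reads were 83.1 to 110 in bone marrow, against 3390 to 8880 in blood and 4240 to 5940 in tumor. The 8 secondary granule genes summed to 116000 to 134000 RPM in bone marrow, against 7280 to 9780 in blood and 8400 to 12400 in tumor. Mitosis reads per 100 epithelial marker reads were 1430 to 1820 in bone marrow, 98.0 to 184 in blood libraries and 15.2 to 20.0 in tumor libraries. Epcam, Cldn7 and Sox9 had 3 reads each over the bone marrow libraries, where the list summed to 88.9 to 102 RPM. Most of that sum came from other genes of the list, so the epithelial ratios need not compare the same cells. In blood, Kif23, Cdc25b and Mki67 held 92.1% to 93.5% of the mitosis reads in these ratios, against 18.6% to 23.4% elsewhere. The other 16 mitosis genes summed to 23.0 to 28.7 RPM in blood and 414 to 610 in tumor. Which cells gave the S phase and mitosis reads of the tumor libraries was not tested.

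**Figure D4:**
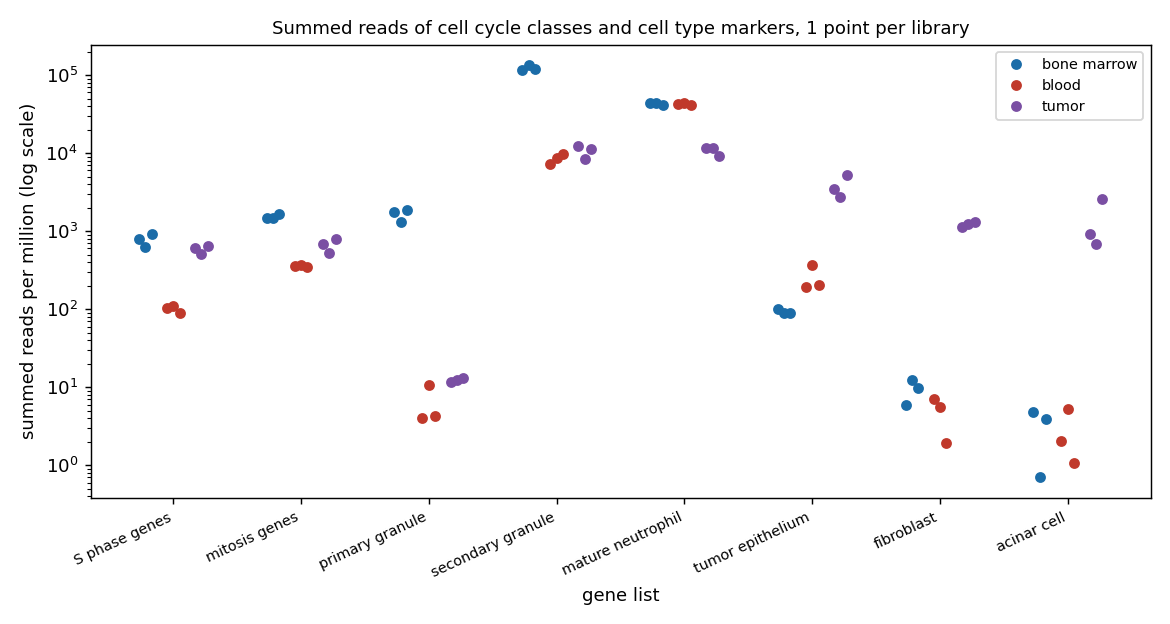
Summed RPM (log axis) of S phase and mitosis genes and of 6 cell type marker lists, 1 point per library, for bone marrow, blood and tumor. Primary granule genes are at 4.05 to 13.2 RPM in blood and tumor libraries, S phase genes are at 513 to 639 RPM in tumor, and epithelial, fibroblast and acinar markers are highest in tumor.

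The scaling of the libraries moved the tumor values. When libraries were scaled by their plain totals, the median of all genes shifted by 0.40 for tumor against blood and 0.43 for tumor against bone marrow. The S phase median for tumor against bone marrow then became 0.06 in place of -0.40, with 1 gene higher and 0 lower, and the mitosis median -0.72 with 5 lower. With libraries centred on their medians the values were -0.88 with 7 S phase genes lower and -1.66 with 13 mitosis genes lower. The direction of the S phase median between tumor and bone marrow therefore depended on the scaling, while the mitosis median was below 0 under all of these scalings.

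Among the 8 G1 genes, 3 were higher and 3 lower in tumor than in bone marrow, against 26.8% and 19.5% of all tested genes. The D-type cyclins, which start the cycle in G1, went in both directions. Ccnd1, cyclin D1, was at log2 FPKM -2.03, -1.28 and -2.55 in bone marrow, -1.82, -1.32 and -1.72 in blood and 3.68, 3.52 and 3.96 in tumor. It had 11 to 23 reads in every bone marrow and blood library and 791, 864 and 1228 in tumor. The change was 5.68 ± 0.34 against bone marrow (adjusted p = 5.05e-07) and 5.34 ± 0.34 against blood (adjusted p = 7.42e-07). LTO1, on the other strand, shares 1100 exon bases with Ccnd1, and reads of these bases cannot be told apart. Ccnd2, cyclin D2, was at 0.12, -0.35 and -0.21 in bone marrow, 1.69, 2.04 and 1.88 in blood and 2.48, 2.27 and 2.79 in tumor. It was higher in blood than in bone marrow by 2.02 ± 0.18 (adjusted p = 1.78e-05), and the further 0.64 ± 0.18 in tumor against blood (adjusted p = 0.0111) turned to -0.11 (adjusted p = 0.595) when libraries were centred on their medians. Ccnd3, cyclin D3, was at 4.18, 4.29 and 3.99 in bone marrow, 3.56, 3.71 and 3.64 in blood and 1.45, 1.22 and 1.53 in tumor. Its tumor libraries lay far below the others, with a change of -2.75 ± 0.12 against bone marrow (adjusted p = 1.14e-07) and -2.24 ± 0.12 against blood (adjusted p = 3.03e-07).

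Of the kinases, Cdk4 was at log2 FPKM 3.38, 2.92 and 3.26 in bone marrow, 0.75, 0.04 and -0.03 in blood and 5.54, 5.08 and 5.73 in tumor. Tumor was the highest and blood the lowest compartment. Cdk4 was higher in tumor by 2.26 ± 0.25 against bone marrow (adjusted p = 3.66e-05) and 5.20 ± 0.25 against blood (adjusted p = 1.69e-07). Tspan31, on the other strand, shares 641 exon bases with Cdk4 and had 239 to 448 reads in tumor against 57 to 76 in bone marrow. The library protocol does not mark strand, so reads of the shared bases cannot be told apart. Cdk2 was at 4.48, 4.55 and 4.48 in bone marrow, 2.00, 2.36 and 2.56 in blood and 2.85, 2.10 and 2.53 in tumor. Blood and tumor overlapped (0.19 ± 0.20, adjusted p = 0.459), with 0.63 when scaled by plain totals (adjusted p = 0.0249) and -0.57 when centred on medians (adjusted p = 0.043), and the change in tumor against bone marrow was -2.01 ± 0.20 (adjusted p = 2.07e-05). Ccne1, cyclin E1, had 58 to 97 reads in bone marrow, against 3 to 10 in blood and 10 to 18 in tumor, with a change of -2.65 ± 0.59 in tumor against bone marrow (adjusted p = 0.00363). Cdk6 (-0.25 ± 0.25, adjusted p = 0.436) and Ccne2 (-0.19 ± 0.49, adjusted p = 0.77) were not called between tumor and bone marrow, and both were lowest in blood.

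**Figure D5:**
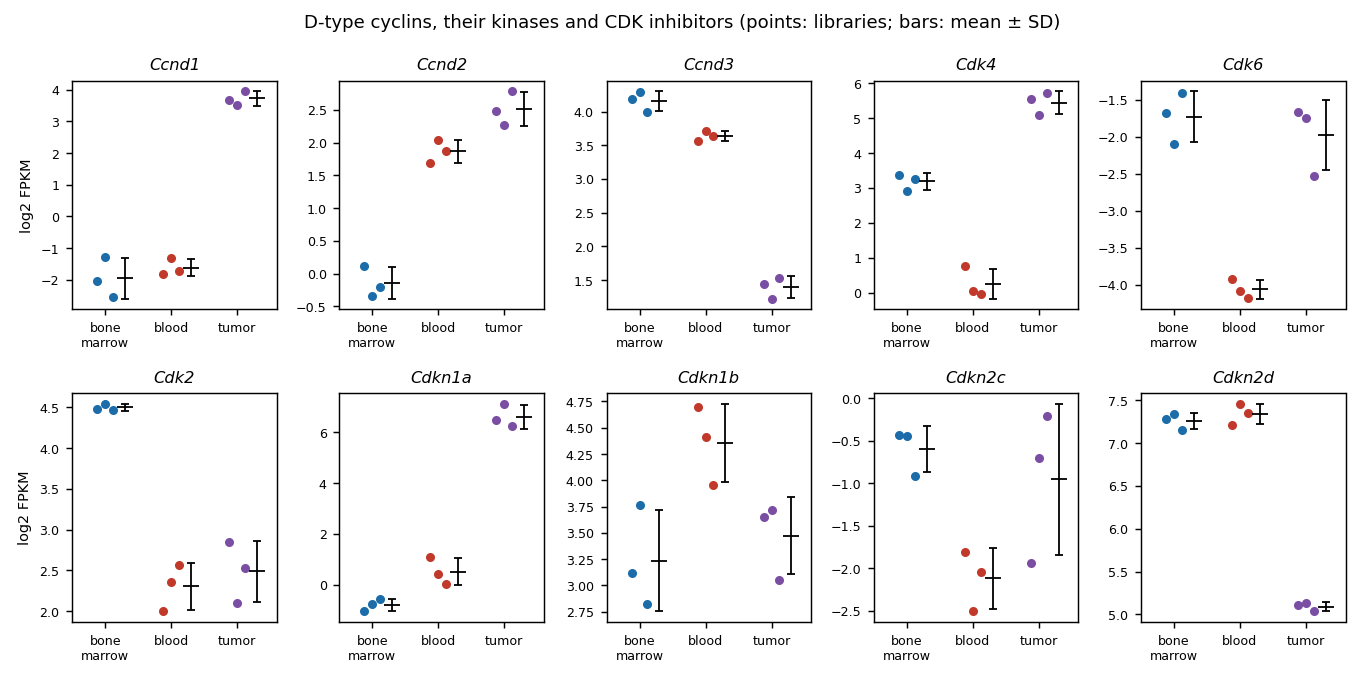
Log2 FPKM of D-type cyclins, Cdk4, Cdk6, Cdk2 and the 4 CDK inhibitors in each library (points) with the mean ± SD of 3 libraries, on a separate axis for each gene that need not start at 0. Ccnd1, Cdk4 and Cdkn1a are highest in tumor, Ccnd3 and Cdkn2d are lowest in tumor, and Cdk2 is highest in bone marrow.

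Cdkn1a, which encodes the CDK inhibitor p21 (chr17:29090976-29100727), had the largest change of the 50 genes between tumor and bone marrow. It was at log2 FPKM -1.06, -0.78 and -0.58 in bone marrow, 1.08, 0.41 and 0.02 in blood and 6.47, 7.14 and 6.25 in tumor. Its reads were 31 to 43 in bone marrow, 46 to 81 in blood and 5366, 10383 and 5869 in tumor. The change was 7.42 ± 0.30 against bone marrow (adjusted p = 8.62e-08) and 6.12 ± 0.30 against blood (adjusted p = 1.69e-07). Tumor library 2, the lowest of the tumor libraries in epithelial markers, was the highest in Cdkn1a. Ccnd1 and Cdk4 instead followed the epithelial markers, lowest in tumor library 2 and highest in tumor library 3. The part of other cells' RNA in these levels was not tested. The smaller difference of Cdkn1a between blood and bone marrow (1.31 ± 0.30, adjusted p = 0.00642) was not called with 1 added to FPKM or with limma-voom.

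Cdkn2d, an INK4 inhibitor of Cdk4 and Cdk6, was at log2 FPKM 7.28, 7.34 and 7.15 in bone marrow, 7.22, 7.46 and 7.35 in blood and 5.10, 5.14 and 5.04 in tumor. Bone marrow and blood overlapped (0.08 ± 0.11, adjusted p = 0.624), and tumor lay below both, with -2.17 ± 0.11 against bone marrow (adjusted p = 1.94e-07) and -2.25 ± 0.11 against blood (adjusted p = 1.69e-07). Cdkn1b, the inhibitor p27, was at 3.12, 3.77 and 2.82 in bone marrow, 4.70, 4.41 and 3.96 in blood and 3.65, 3.72 and 3.05 in tumor. It was higher in blood than in bone marrow by 1.12 ± 0.28 (adjusted p = 0.0105), a call lost without bone marrow library 3. Its change in tumor against blood (-0.88 ± 0.28, adjusted p = 0.0197) was not called without blood library 1 or 2 or tumor library 1 or 3. Nor was it called with plain library totals, quantile normalization or no variance trend. With plain totals Cdkn1b was called higher in tumor than in bone marrow. Cdkn2c, another INK4 inhibitor, had 31, 26 and 22 reads in bone marrow, 7, 6 and 7 in blood and 10, 29 and 43 in tumor, and no comparison was called with all libraries. Without tumor library 1 it was called in tumor against blood and in blood against bone marrow, and without tumor library 3 in the latter. With plain library totals it was also called in tumor against blood. In blood against bone marrow it was called under 7 alternatives in all.

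Of 23 other cell cycle regulators, 7 (30.4%) were higher and 5 (21.7%) lower in tumor than in bone marrow, shares near the 26.8% and 19.5% of all tested genes. The 5 lower genes were Tfdp1, an E2F partner (-2.09 ± 0.27, adjusted p = 0.000115), the Rb relatives Rbl1 and Rbl2 (-1.14 and -1.15), Fzr1, an activator of the anaphase-promoting complex (-1.35), and Ccng1 (-0.61). Of the higher genes, Cdkn2b, an INK4 inhibitor, had 171, 170 and 329 reads in tumor, at most 2 in a bone marrow library and at most 4 in a blood library. Cdkn2a, a neighboring inhibitor gene, had 36, 17 and 27 reads in tumor and 0 in all other libraries, which is at least 23.3-fold higher in tumor than bone marrow if the latter is allowed 3 reads over the group. Btg2, an antiproliferative gene, had 16125, 25757 and 17698 reads in tumor and 4139 to 6602 elsewhere (1.46 ± 0.16 against bone marrow, adjusted p = 2.99e-05). Myc, which drives entry into the cycle, had 456, 451 and 602 reads in tumor, 83 to 144 in bone marrow and 7 to 32 in blood. In log2 FPKM, Cdkn2b and Myc were, like the epithelial markers, lowest in tumor library 2 and highest in tumor library 3. Cdkn2a was highest in tumor library 1 and Btg2 in tumor library 2. The part of other cells' RNA in these tumor levels was not tested.

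In the transcription circuit, all 5 genes had every tumor library below every bone marrow library, or 3 of 5 with plain totals (E2f1, E2f2 and E2f8), and 3 were called lower. Of all tested genes, 23.7% lay below in this way, or 15.5% with plain totals, and 19.5% were called lower. E2f2, an activator E2F, was at log2 FPKM 3.39, 3.48 and 3.16 in bone marrow, 2.25, 2.29 and 2.16 in blood and 0.06, -0.12 and -0.10 in tumor. Its levels stepped down from bone marrow to blood and from blood to tumor, with no overlap. The change was -1.11 ± 0.13 for blood against bone marrow (adjusted p = 0.000107) and -2.29 ± 0.13 for tumor against blood (adjusted p = 3.74e-07). E2f8, an atypical repressor E2F, was at 1.05, 0.66 and 1.03 in bone marrow, -2.19, -3.56 and -2.55 in blood and -2.37, -1.88 and -1.77 in tumor. Tumor and blood overlapped (0.76 ± 0.40, adjusted p = 0.127), though E2f8 was called higher in tumor with plain totals. The change in tumor against bone marrow was -2.92 ± 0.40 (adjusted p = 0.00015).

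E2f1 and Foxm1 were lowest in blood. E2f1, an activator of S phase genes, had 84 to 104 reads in bone marrow, against 3 to 13 in blood and 25 to 56 in tumor. It was higher in tumor than in blood by 1.87 ± 0.54 (adjusted p = 0.013), a call lost without tumor library 2 or 3. Against bone marrow it was not called (-1.35 ± 0.54, adjusted p = 0.0621), but was called lower under 8 alternatives, among them limma-voom and leaving out blood library 1 or 3. Foxm1, an activator of mitosis genes, had 110, 92 and 89 reads in bone marrow, 1, 3 and 0 in blood and 22, 55 and 79 in tumor, and was higher in tumor than in blood (5.14 ± 0.88, adjusted p = 0.000596). Its difference from bone marrow was not called (-1.26 ± 0.88, adjusted p = 0.268), but was called lower with 0.1 or 1 added to FPKM, with only the 2 compartments compared and with limma-voom (lowest adjusted p = 0.00879). Rb1, the retinoblastoma gene, had 133, 152 and 213 reads in bone marrow, 51, 91 and 111 in blood and 39, 120 and 111 in tumor. Its change in tumor against bone marrow (-1.20 ± 0.37, adjusted p = 0.0202) was not called without bone marrow library 2 or 3 or tumor library 1, or with plain totals, and Rcbtb2 and Lpar6 on the other strand share exon bases with it. In all, 17 of the 50 genes share exon bases with a gene on the other strand.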

How the data were processed

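RNA of sorted neutrophils was sequenced as SMARTSeq v2 libraries, a protocol that does not mark strand. Per the submitters' processing notes the tools were STAR 2.5.2b, featureCounts 1.5.0 and edgeR 3.8.6. The authors deposited log2 FPKM values, with a gene's genomic span as its length for 84.7% of the genes matched to the annotation. Steps of the deposited FPKM values gave whole reads for all 46517 genes (tolerance 0.005) and the authors' scaled library sizes. RPM are these reads scaled to that library size.

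limma 3.58.1 (R 4.3.3) was run on the log2 values of all 9 libraries with no covariate and a variance trend on mean log2 reads, for genes with at least 5 reads in at least 1 library, and was tested on simulated data. p-values rest on the spread between libraries within a group, pooled over the 3 groups and drawn toward a trend over all tested genes. The group outside a comparison therefore also enters its test. For a single value, an exact permutation test of 3 against 3 cannot go below 0.1. Alternatives covered filters, pseudocounts, scaling, the variance trend, limma-voom, a replicate block and each library left out.

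The 50 genes and all lists were chosen with earlier results of these data known. The rule for named genes took all transcription genes and CDK inhibitors, the 4 most read genes of the other classes, Mki67, Top2a and Pcna, the largest called change per class and comparison, and genes called against their class, 30 in all. Cdk1, Ccnb2, Bub1, Mcm4, Cdk6, Ccne2 and the genes outside the 50 were named after their values were seen.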

Additional observations from a re-analysis of the deposited data

How the results depend on the processing

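Under 24 alternatives, 5 of the 6 counts over the 50 genes stayed within 1.5 times. The exception was members lower in tumor than bone marrow: 21, but 11 with plain library totals, 32 with limma-voom and 13 to 26 with a library left out, the lowest without bone marrow library 3. Within classes, S phase genes lower in tumor than bone marrow (3) ranged from 0 with plain totals to 7 with median centring, and mitosis genes (11) from 5 with plain totals to 19 with limma-voom. The S phase minus mitosis median log2 fold change, tumor against blood, was -1.163. It was -0.643 with a filter of log2 FPKM over 0, -0.614 with 0.1 added to FPKM, 0.051 with 1 added, and -1.356 to -1.039 with a library left out. The S phase minus mitosis median log2 fold change, tumor against bone marrow, was 0.779, and 1.011 with quantile normalization and 0.641 to 0.879 with a library left out. The S phase minus mitosis median log2 fold change, blood against bone marrow, was 2.246, and 1.762 with that filter, 1.699 with 0.1 added, 0.991 with 1 added, 2.124 with quantile normalization and 1.805 to 2.352 with a library left out. The cause of these shifts was not tested.

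With median centring, the log2 fold change of Ccnd2, tumor against blood, became -0.112 (adjusted p = 0.595) and the log2 fold change of Cdk2, tumor against blood, -0.565 (adjusted p = 0.043), where plain totals gave 0.634 (adjusted p = 0.0249). Of the 30 named genes, 20 of 24 calls for tumor against blood, 12 of 21 for tumor against bone marrow and 22 of 25 for blood against bone marrow held under every alternative. No shared deviation of same-numbered libraries was seen (correlations -0.10 to 0.024). This cannot tell whether they came from the same pool of mice, and the main fit did not pair them. With the replicate block, 22 genes were lower and 4 higher in tumor than in bone marrow, and 38 were higher and 6 lower in tumor than in blood. Of all genes, 5970 were higher and 3731 lower in tumor than in blood, 7359 and 2600 with plain totals, 4252 and 5327 with quantile normalization, and 4211 and 5951 with median centring. Against bone marrow 4751 were higher and 3458 lower, 6404 and 2255 with plain totals, 3553 and 4934 with quantile normalization, and 3577 and 5110 with median centring. Separation of libraries under plain totals was added after seeing the data.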
